A study of Rattus norvegicus with 56 samples.

Results

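The genes described here encode the machinery that docks, primes, fuses and retrieves synaptic vesicles at the nerve terminal. They were chosen by name as 41 genes with textbook roles in vesicle release, from the vesicle membrane to the proteins that recover the membrane after fusion. Array probes were assigned to them through the RefSeq accession each probe carries, and the brightest probe of a gene stood for it. A probe was found for 40 of the 41 genes, of 16481 genes with a symbol on the array, and Erc1 matched none. All 40 passed the filter that a probe be well above background on at least 3 arrays, and 37 were well above background on all 55 arrays used. The exceptions were Doc2b, Syn3 and Unc13c.

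The samples were primary cultures of hippocampal neurons from embryonic Sprague Dawley rats, with RNA hybridized to 1-colour rat expression arrays. Dishes received repetitive transcranial magnetic stimulation (rTMS) from a coil beneath them, either as evenly spaced pulses at 1 Hz or in bursts, the intermittent theta burst protocol (iTBS). Sham dishes had the coil at a distance, and untreated control dishes were taken at 0 h only. RNA was collected at 0 h, directly after stimulation, and 2 h, 8 h, 24 h and 48 h later. At these 5 times there were 4, 4, 3, 3 and 3 sham arrays, 3, 2, 4, 3 and 4 arrays after 1 Hz stimulation and 4, 4, 3, 3 and 4 arrays after iTBS, with 4 control arrays. A further 1 Hz array at 2 h was left out because the scanner software had marked its grid as misplaced. No label states that arrays of a group came from separate cultures, so p-values measure the spread between these samples, which may be technical. A dish in isolation has neither the circuits nor the other inputs of the hippocampus, and the labels give no genotype or transgene.

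A running number in the sample descriptions put the arrays into 4 series, called A, B, C and D here, with 11, 12, 17 and 15 arrays. The order of arms and times repeated in each series, but no label says whether a series is a separate culture or day. Levels are log2 processed signals after every array was brought to the same mean and SD, so that 0 is the average probe. They compare 1 probe between arrays and never 1 gene with another. Of 55 arrays, between 66.1% and 81.8% of spots were well above background, no spot was saturated, and the number of arrays limits the precision of every comparison.

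Release begins when an action potential opens calcium channels at the active zone, the patch of membrane where vesicles dock. Rim, Unc13, Piccolo and Bassoon proteins tether and prime vesicles there, and the small GTPases of the Rab3 family mark vesicles that are ready. Syntaxin, Snap25 and synaptobrevin (Vamp) proteins then zip into the SNARE complex that pulls the membranes together, complexins clamp it, and synaptotagmins sense calcium and trigger fusion. Nsf and its adaptors take spent SNARE complexes apart, and dynamin, amphiphysin, endophilin and synaptojanin retrieve the membrane. In hippocampal cultures these genes are known to rise as neurons mature and form synapses. RNA of a culture mixes all its cells, so fewer cells of a type and less RNA per cell cannot be told apart.

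The promoters were searched for the cyclic AMP response element, the site of CREB, a factor known to respond to neuronal activity. RefSeq promoter windows of the GRCr8 assembly were at hand for 33 of the 41 genes, and the 250 bases before the gene start were read on both strands. Each of these genes counted once for a match in any of its windows. The share over the genome counts single windows, so the shares differ in unit. The letters TGACGTCA were found in 4 of the 33 genes (12.1%) and in 531 of all 33469 windows of that length (1.59%). The genes were Napa, an adaptor of Nsf, Sh3gl2, which encodes endophilin A1, Syn1, which encodes synapsin 1, and Vamp1, which encodes a synaptobrevin. These windows are printed 5′ to 3′ on the strand of the gene, with the motif in capitals; they lie at chr1:85915185-85915434, plus strand, at chr5:104699020-104699269, plus strand, at chrX:3725495-3725744, plus strand and at chr4:159698644-159698893, plus strand. The motif started 59, 66, 190 and 71 bases before the gene start.
Napa: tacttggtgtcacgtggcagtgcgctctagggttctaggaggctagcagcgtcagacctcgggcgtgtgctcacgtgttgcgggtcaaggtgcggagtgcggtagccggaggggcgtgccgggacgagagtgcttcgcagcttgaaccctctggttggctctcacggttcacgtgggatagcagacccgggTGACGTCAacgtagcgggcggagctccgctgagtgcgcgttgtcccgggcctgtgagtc
Sh3gl2: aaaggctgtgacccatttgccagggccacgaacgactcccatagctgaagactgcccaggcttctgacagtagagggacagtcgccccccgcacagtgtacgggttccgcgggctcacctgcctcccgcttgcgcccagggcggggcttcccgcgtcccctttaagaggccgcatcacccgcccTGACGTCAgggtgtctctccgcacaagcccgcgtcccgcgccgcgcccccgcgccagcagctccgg
Syn1: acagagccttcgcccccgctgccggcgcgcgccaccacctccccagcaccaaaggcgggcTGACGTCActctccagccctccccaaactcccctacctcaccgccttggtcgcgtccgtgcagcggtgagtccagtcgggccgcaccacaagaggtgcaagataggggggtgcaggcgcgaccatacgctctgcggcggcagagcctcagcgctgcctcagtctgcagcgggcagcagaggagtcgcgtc
Vamp1: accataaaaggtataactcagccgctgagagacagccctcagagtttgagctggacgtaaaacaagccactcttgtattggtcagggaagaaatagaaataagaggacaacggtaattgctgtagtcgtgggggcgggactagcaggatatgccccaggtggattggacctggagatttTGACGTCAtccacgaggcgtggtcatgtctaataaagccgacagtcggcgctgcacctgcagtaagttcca

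A match of these letters is a description and does not show that a factor binds. Over the 10 comparisons of a stimulated group with sham at the same time, the log2 change of Napa ran from −0.28 to 0.39 (smallest unadjusted p = 0.310) and that of Sh3gl2 from −0.52 to 0.49 (smallest unadjusted p = 0.267). It ran from −0.69 to 0.57 (smallest unadjusted p = 0.137) for Syn1 and from −0.33 to 0.19 (smallest unadjusted p = 0.166) for Vamp1, all by limma, so none of the genes with the motif passed in any of these comparisons. The core of the RE1 element, the site of the repressor of neuronal genes REST, was in none of the 33 genes and in 9 of all windows (0.0269%). GGGCGG, the core of the GC box, was in 23 of the 33 genes (69.7%) and in 30.5% of all windows. TATAAA was in none of the genes and in 12.9% of all windows.

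Neuron markers were detected, but so were markers of other cell types, so detection alone does not test the neuronal label. All 8 neuron markers examined (Map2, Tubb3, Rbfox3, Dcx, Nefl, Nefm, Elavl3 and Elavl4) were well above background on all 55 arrays. So were all 7 astrocyte markers, among them Gfap, Aqp4 and Slc1a3, and all 7 markers of the oligodendrocyte lineage, among them Pdgfra, Olig2 and Mbp, so RNA of these cell types was present too. Of 7 microglia markers, Cx3cr1, Itgam and C1qb were well above background on all arrays. P2ry12 was so on 54 of 55, Aif1 on 32, C1qa on 25 and Csf1r on 7. Of 5 endothelial and mural markers, Pdgfrb was well above background on all arrays and Pecam1 on 53 of 55. Rgs5 was so on 12, Cldn5 on 6 and Flt1 on 4.

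Vesicle release genes differed most between the 4 series of arrays. With time and arm kept in the model, 36 of the 40 genes differed between series at an adjusted p under 0.05 (limma, Benjamini-Hochberg over 35694 probes), against 75.4% of all probes. In series D, 23 genes were higher than in the mean of A, B and C and 4 were lower (all probes 53% in either direction), where 28.9% and 24.2% of all probes were. In series C, 3 were higher and 18 lower than in the mean of A and B (all probes 20.3% and 19.8%, together 40.1%). In series A, 14 were higher and 1 lower than in B (all probes 16.7% and 13.7%, together 30.4%). The median change of the 40 genes was 0.36 in the first contrast, −0.21 in the second and 0.35 in the third, where the medians of all probes were 0.03, −0.02 and 0.04. By median level, series D was the highest for 23 genes, A for 11, B for 4 and C for 2, and C was the lowest for 21, B for 15, D for 3 and A for 1. Amph, Cplx2, Dnm1 and Rab3c did not pass, 15 genes passed in 1 of the 3 contrasts, 15 in 2 and 6 in all 3.

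The genes that passed in all 3 contrasts were Bsn, Doc2a, Sh3gl2, Snap25, Syt5 and Unc13b. Series and slide were partly bound together, since series A lay on slides 1 and 2, B on 3 and 4, and C on 5, 6 and 7, while D was spread over the slides in order of time. With the slide as a block, 1 gene passed between A and B in place of 15 (all probes 0.44%). Between C and the mean of A and B, 13 of 40 passed in place of 21, near the share of all probes (29.1%). A and B shared no slide, and in that model they were linked through the arrays of D on slides 1 to 4. The gene that passed between A and B was Unc13b (1.23, adjusted p = 0.0267). The changes of Snap25 (0.81, adjusted p = 0.0528), Doc2a (0.95, adjusted p = 0.138) and Sh3gl2 (0.90, adjusted p = 0.379) were no smaller than without the block, and their calls were lost. Those of Rph3a (0.62, adjusted p = 0.671), Stx1a (0.38, adjusted p = 0.595), Bsn (0.29, adjusted p = 0.440) and Erc2 (−0.37, adjusted p = 0.594) lay nearer to 0 and did not pass either, nor did Cplx1 (0.44, adjusted p = 0.603). In C the calls lost were those of Syp (−0.73, adjusted p = 0.0532), Sv2a, Snap25 (−0.38, adjusted p = 0.0546), Syt5, Doc2a (0.50, adjusted p = 0.0812), Rims1, Bsn (0.0061, adjusted p = 0.976), Nsf, Sh3gl2 (−0.62, adjusted p = 0.146) and Snap91. No call in D was lost in that model. The replicate number, partly bound to series D, left 11 genes in D as a block, in place of 27. Syp, Syn1, Vamp2, Cplx1 and Rab3a then did not pass, with values in the closing section. The SD of a gene within a series had a median over the 40 genes of 0.51 in A, 0.37 in B, 0.18 in C and 0.27 in D, so series A was the most variable.

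**Figure D1:**
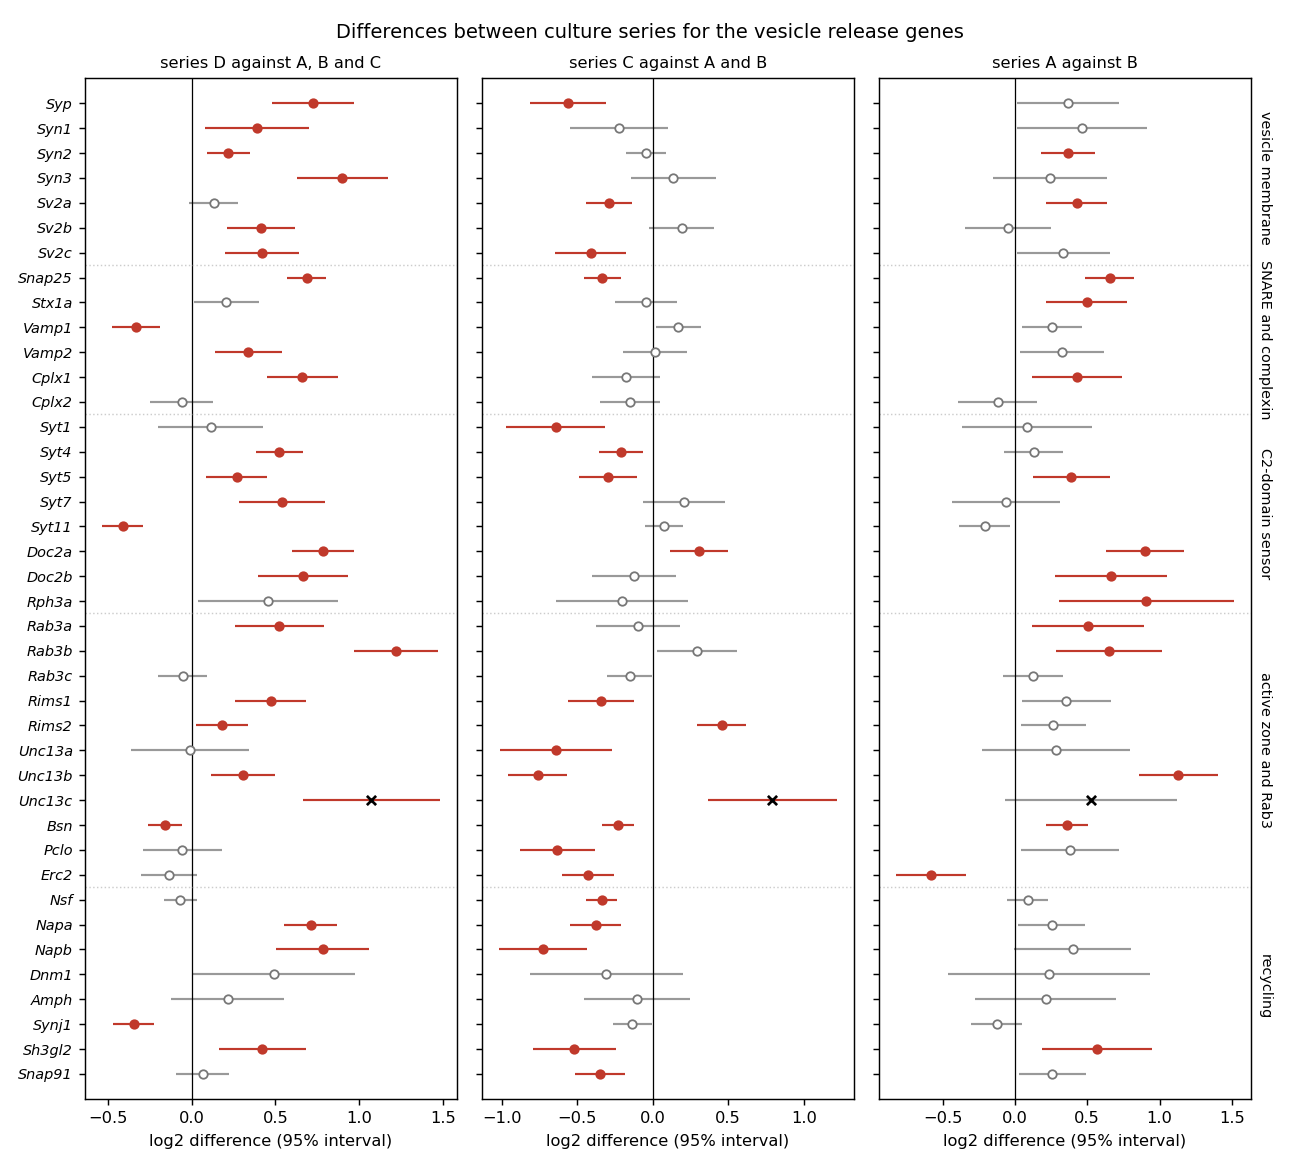
Log2 change of each of the 40 vesicle release genes (points) in 3 contrasts between series of arrays, with horizontal bars for the 95% interval, red for an adjusted p under 0.05 (limma). Crosses mark Unc13c, at background on all arrays of series B, whose values are no measured size. Of the genes that passed, most lie right of 0 for series D (23 of 27) and for A against B (14 of 15), and left of 0 for series C (18 of 21).

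Of the 7 vesicle membrane genes, 6 were higher in series D and none lower. Synaptophysin (Syp), the abundant membrane protein used to mark vesicles, had lowest, median and highest levels of 1.12, 2.86 and 3.80 in series A, 1.76, 2.34 and 3.14 in B, 1.70, 1.98 and 2.39 in C and 2.24, 3.14 and 3.52 in D. The median of D lay above and that of C below the medians of A and B, and the change was 0.72 ± 0.12, adjusted p = 3.06e-06, in the contrast of D and −0.56 ± 0.13, adjusted p = 0.000408, in that of C. Syn1, whose product ties vesicles to the cytoskeleton, was 5.94 ± 0.70, 5.55 ± 0.68, 5.49 ± 0.26 and 6.03 ± 0.41 (mean ± SD, n = 11, 12, 17 and 15), and only the contrast of D passed (0.39 ± 0.15, adjusted p = 0.0325). Syn3, the synapsin of developing neurons, gave the largest change of the group in series D (0.90 ± 0.13, adjusted p = 4.44e-07). Its levels were −2.69, −1.70 and −0.81 in A, −2.96, −1.94 and −1.23 in B, −2.49, −1.59 and −1.08 in C and −1.57, −0.78 and −0.18 in D, and in these series 9 of 11, 9 of 12, 16 of 17 and 15 of 15 arrays had it well above background. The change of the SV2 transporter-like proteins in series D was 0.41 for Sv2b and 0.42 for Sv2c, which passed, and 0.13 for Sv2a, which did not.

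Of the 6 SNARE and complexin genes, 3 were higher in D and 1 lower. Snap25, the palmitoylated SNARE of the plasma membrane, was among the genes that passed in every contrast. Its levels were 5.99, 6.55 and 6.90 in A, 5.60, 5.83 and 6.19 in B, 5.50, 5.80 and 6.19 in C and 6.46, 6.75 and 7.18 in D, with changes of 0.69 ± 0.058, adjusted p = 5.07e-13 for D, −0.33 ± 0.060, adjusted p = 2.49e-05 for C and 0.66 ± 0.084, adjusted p = 1.70e-07 for A over B. The lowest array of D lay above the highest of C. Vamp2, the main vesicle SNARE, was 9.597 ± 0.42, 9.35 ± 0.45, 9.47 ± 0.14 and 9.81 ± 0.27 in A to D and passed in the contrast of D (0.34 ± 0.10, adjusted p = 0.00443). Its close relative Vamp1 was lower in D (−0.33 ± 0.070, adjusted p = 0.000123), with levels of 4.19, 4.38 and 4.48 in C and 3.61, 3.89 and 4.37 in D. A further probe of Vamp1 changed by −0.045 in D (adjusted p = 0.757, limma) and another by −0.38 (adjusted p = 2.52e-05, limma). These probes correlated with the brightest at 0.31 and 0.51. Stx1a, the plasma membrane syntaxin, passed for A over B (0.50 ± 0.14, adjusted p = 0.00653), and Cplx1, a complexin, was higher in D (0.66 ± 0.11, adjusted p = 1.66e-06) and in A over B (0.43 ± 0.15, adjusted p = 0.0301).

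**Figure D2:**
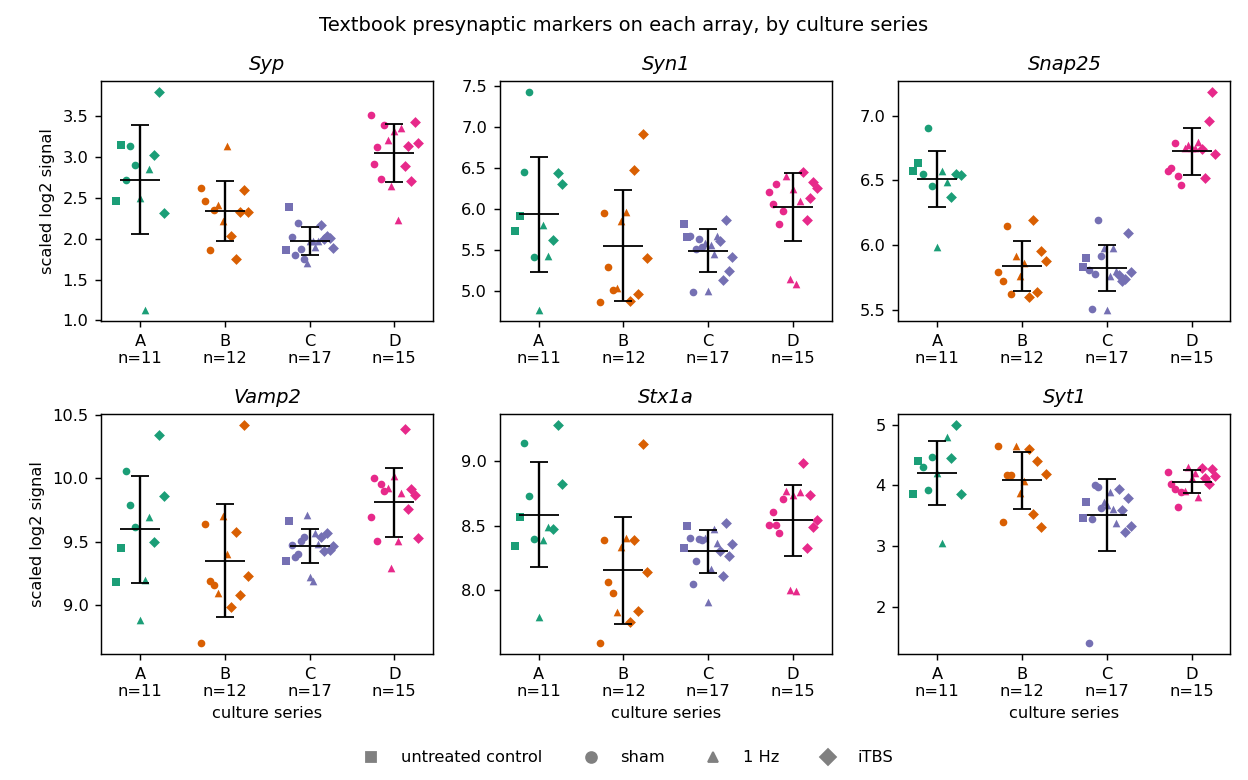
Level (log2 processed signal scaled within the array) of 6 textbook markers of the presynaptic terminal on each of 55 arrays (points) in series A to D, with the series mean and SD. Snap25 was 6.51 ± 0.22, 5.84 ± 0.19, 5.83 ± 0.18 and 6.73 ± 0.18 in A to D, and Syt1 has 1 low array in C at 1.41.

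The C2-domain genes, most of which bind calcium and lipid, were higher in D for 5 of 8 and lower for 1. Doc2a, a high-affinity calcium sensor of asynchronous and spontaneous release, passed in every contrast, with 0.90 ± 0.13, adjusted p = 2.89e-06 for A over B, 0.31 ± 0.096, adjusted p = 0.00987 for C and 0.78 ± 0.092, adjusted p = 2.90e-09 for D, of which the first and second did not pass with the slide as a block. Its levels were 1.90, 2.34 and 3.40 in A, 0.58, 1.45 and 2.42 in B, 2.04, 2.20 and 2.75 in C and 2.22, 3.001 and 3.25 in D. Rph3a, a Rab3 effector, was higher in A than in B (0.91 ± 0.30, adjusted p = 0.0191), with 1.97, 3.35 and 4.90 in A and 1.69, 2.37 and 4.12 in B, so the series overlapped. That call was lost with the slide as a block, and without sham replicate 3 at 2 h or 1 Hz replicate 1 at 48 h. A further probe of Rph3a changed by 0.31 between A and B and did not pass (adjusted p = 0.234, limma). Syt1, the fast calcium sensor, was lower in C (−0.64 ± 0.16, adjusted p = 0.00148), with levels of 1.41, 3.63 and 4.01 there and 3.06, 4.30 and 4.99 in A. Syt11, a synaptotagmin that does not bind calcium, was the most lowered of the 40 genes in D (−0.41 ± 0.060, adjusted p = 2.44e-07), while Syt4, Syt5 and Syt7 were higher there by 0.52, 0.27 and 0.54. A further probe of Syt11 changed by −0.11 in D and did not pass (adjusted p = 0.248, limma). Its correlation with the brightest probe was 0.39.

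Active zone and Rab3 genes moved both ways, with 6 of 11 higher and 1 lower in D, and 2 higher and 6 lower in C. Rab3b, a Rab3 isoform of some inhibitory terminals, changed most in D (1.22 ± 0.12, adjusted p = 9.32e-11), with 3.24, 4.19 and 4.53 there and 1.87, 3.06 and 4.25, 1.49, 2.49 and 3.55 and 2.86, 2.98 and 3.28 in A, B and C. The other Rab3 genes differed from it, since Rab3a was higher in D by 0.52 and Rab3c passed in no contrast. Unc13c, a Munc13 known chiefly from the cerebellum, passed as higher in D (adjusted p = 2.52e-05) and in C (adjusted p = 0.00276), but its signal was near background and the contrasts include series B, so no size is given. The arrays well above background for it were 3 of 11 in A, none of 12 in B, 6 of 17 in C and 12 of 15 in D, so against B the level was at least 1.82-fold higher in D. Unc13b, which encodes Munc13-2, was higher in A than in B (1.13 ± 0.14, adjusted p = 5.36e-08) and lower in C (−0.76 ± 0.098, adjusted p = 6.19e-08), with 0.61, 1.34 and 2.23 in A, −0.56, 0.15 and 0.88 in B and −0.38, 0.055 and 0.28 in C. Unc13a, the main Munc13 of the forebrain, and Pclo, which encodes Piccolo, were both lower in C (−0.64 and −0.63). Further probes of Pclo changed by −0.32, −0.22 and −0.43 in C (adjusted p = 0.0653, 0.208 and 0.0222, limma), so only the last of them passed.

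Rims2, a Rim scaffold, was higher in C (0.46 ± 0.080, adjusted p = 1.61e-05) and Erc2, an active zone scaffold, lower in A than in B (−0.58 ± 0.12, adjusted p = 0.000328, a call lost with the slide as a block). Each rests on a probe that a further probe of the gene did not follow over the 55 arrays. For Erc2 the correlation between probes was 0.044 and the further probe changed by 0.44 between A and B, and for Rims2 the correlation was −0.02 and the further probe changed by −0.20 in C. The probes of Vamp2 and of Rph3a correlated at −0.16 and 0.18, and those of Syn1, Pclo, Snap91 and Syt4 above 0.8. Bsn, which encodes Bassoon, was lower in D (−0.16) and higher in A over B (0.36), both past the threshold.

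The recycling genes were lower in C for 5 of 8 and higher for none. Napb, an Nsf adaptor of neurons, was the most changed of them in C (−0.73 ± 0.14, adjusted p = 9.99e-05) with levels of −0.21, −0.025 and 0.36 in C and −0.23, 1.09 and 1.91 in A. Its relative Napa was lower in C (−0.38) and higher in D (0.71). Nsf, the ATPase they serve, and Snap91, a clathrin adaptor of nerve terminals, passed in C alone of the 3 contrasts (−0.34 and −0.35), and Sh3gl2 passed in every one (0.42 in D, −0.52 in C and 0.57 in A over B). Synj1, the lipid phosphatase synaptojanin, was lower in D (−0.35 ± 0.060, adjusted p = 6.21e-06), and Amph and Dnm1 passed in none of the 3 contrasts.

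Markers of other cells moved with the series as well. The mean level of the oligodendrocyte lineage markers on single arrays ran over 4.69 to 5.91 in A, 5.68 to 6.79 in B, 6.25 to 7.001 in C and 3.20 to 4.42 in D. That list was lower in D for 6 of 7 genes, with a median change of −2.41, and Pdgfra, the receptor of oligodendrocyte precursors, changed by −3.35. All 3 measured markers of dividing cells were lower in D, with a median of −2.08, and their mean level ran over 2.27 to 3.94 there against 4.27 to 5.90, 4.78 to 6.13 and 4.42 to 5.41 in A, B and C. The neuron markers moved less, over 6.16 to 7.03, 6.07 to 6.61, 6.19 to 6.52 and 6.26 to 6.83 in A to D, and 4 of 8 were higher and 1 lower in D (median 0.28), 2 lower in C and 4 higher in A over B. Astrocyte markers ran over 6.26 to 7.78, 6.92 to 8.40, 7.09 to 7.61 and 6.68 to 7.72, and microglia markers over −0.998 to 0.77, −1.12 to −0.61, −1.22 to −0.52 and −0.88 to 0.65. The part of these shifts in the levels of the vesicle release genes was not tested.

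A list of 74 other genes of vesicle fusion and recycling, of which 69 were measured, was set beside them. In D, 37 of the 69 were higher and 11 lower, in C 18 were higher and 23 lower, and in A over B 28 were higher and 5 lower, and 62 of 69 differed between series. The median changes were 0.21, −0.06 and 0.28, against 0.36, −0.21 and 0.35 for the vesicle release genes.

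Over time, averaged across arms, 1 of these genes passed. Against 0 h, 0 of 40 passed at 2 h (all probes 0%), 0 at 8 h (0.219%), 0 at 24 h (3.83%) and 1 by 48 h (10.8%, and 6.13% for probes that rose, 4.7% for those that fell). At an unadjusted p under 0.05 there were 0, 0, 5 and 5, against 1.44%, 6.89%, 17.4% and 26.5% of all probes. The gene was Doc2a, which rose by 0.78 ± 0.26 (adjusted p = 0.0424, limma). Its lowest, median and highest levels were 0.58, 2.16 and 3.03 at 0 h over 11 arrays and 2.07, 2.75 and 3.40 at 48 h over 11 arrays, so the times overlapped. Its adjusted p was above 0.05 when any of 11 arrays was left out, which were sham replicates 1 and 2, 1 Hz replicate 1 and iTBS replicates 1 and 3 at 0 h, and sham replicates 2 and 3, 1 Hz replicates 1 and 4 and iTBS replicates 1 and 4 at 48 h. Blocking on the series it was 0.000105, and with the slide as a block, where the change was 0.91, it was 0.134.

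Next to it, Syt5, a synaptotagmin, changed by −0.55 ± 0.17 at 24 h (adjusted p = 0.0590), and it did not pass. Neither did Unc13c at 48 h (adjusted p = 0.0727), which was well above background on 3 of 11 arrays at 0 h and 7 of 11 at 48 h, so no size is given. At 2 h and 8 h the smallest p belonged to Sv2b (a log2 change of 0.26 ± 0.17, unadjusted p = 0.146, adjusted p = 1.00, limma) and Sh3gl2 (a log2 change of −0.44 ± 0.25, unadjusted p = 0.0878, adjusted p = 0.878, limma). For a change at any time the smallest adjusted p was that of Syn2, a synapsin (0.0519; all probes 8.16% called), and over the sham arrays alone that of Sv2a (0.929; all probes 0.0784% called).

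When series was a block in the model, so that times were compared within a series, more genes passed. At 24 h there were 5 of 40 (all probes 14%), of which Doc2a rose (0.54, adjusted p = 0.00447) and Syt5 (−0.55, adjusted p = 0.00376), Pclo (−0.49, adjusted p = 0.0439), Rims1 (−0.48, adjusted p = 0.0285) and Nsf (−0.20, adjusted p = 0.0448) fell. At 48 h there were 7 (all probes 27%). Doc2a rose (0.68, adjusted p = 0.000105), and Unc13c passed as higher (adjusted p = 0.00736), with most of its 0 h arrays at background as given above. The genes that fell were Pclo (−0.58, adjusted p = 0.00684), Rims1 (−0.50, adjusted p = 0.00874), Syn3 (−0.56, adjusted p = 0.0232), Syt4 (−0.31, adjusted p = 0.0145) and Unc13b (−0.34, adjusted p = 0.0462). Syn3 was well above background on 11 of 11 arrays at 0 h and 6 of 11 at 48 h, so its size is uncertain. Its mean at 24 and 48 h minus that at 0, 2 and 8 h was −0.54, −0.74 and −0.44 in series A, B and C, but 0.53 in D. Pclo, Rims1 and Unc13b are scaffolds and priming factors of the active zone, and both shares were below those of all probes. At 48 h, 3 of 8 neuron markers (Dcx, Map2 and Tubb3) were lower and 3 of 7 astrocyte markers higher in the model without the block, and of the 69 other fusion and recycling genes 4 were higher and 2 lower.

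A test of series by time, added after the values had been seen, passed for 17 of 40 vesicle release genes, close to the share of all probes, which was 39.4%, and without series A for 19, where it was 46.6%, with 14 genes in both. A differing course over time was thus as common over the whole array, and the values that follow describe these genes without setting them apart. It used 51 arrays, without the untreated controls. Early and late arrays were then compared within each series, with 0, 2 and 8 h as early and 24 and 48 h as late. In series B, 11 genes had early and late arrays that did not overlap, 8 lower and 3 higher late (all probes 23.1%). There were 5 lower in series A (all probes 9.89%), 2 lower in C (3.52%) and 1 lower in D (11.7%).

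Of the genes without overlap, Unc13a and Pclo, both of the active zone, differed most, in series B. Unc13a had levels of 2.16 to 2.57 early and 0.65 to 1.10 late in series B, over 8 and 4 arrays. The late minus early difference of Unc13a was −0.76, −1.57, 0.024 and 0.29 in A, B, C and D (adjusted p = 0.0122 for series by time, limma), so the late mean was lower in A and B and not in C and D. Pclo had levels of 3.81 to 4.34 early and 2.38 to 2.82 late in B, and its differences were −0.68, −1.45, −0.0068 and −0.042 in A to D (adjusted p = 5.85e-05). Rims1 was 0.79 to 1.55 early and −0.21 to 0.55 late in B, with differences of −0.66, −0.89, −0.048 and −0.15, and did not pass the test with all series (adjusted p = 0.214). Late arrays of both Unc13a and Pclo lay wholly below the early ones in series B. Sh3gl2, Syt1, Napb, Unc13b and Snap91 also lay wholly lower there, by −0.99, −0.83, −0.77, −0.72 and −0.66.

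Other genes were higher late in series B. Rph3a was 1.69 to 2.77 early and 3.09 to 4.12 late in B, and its differences were 0.20, 1.44, −0.27 and −0.95 in A to D (adjusted p = 0.000638). These are values of its brightest probe, with which a further probe correlated at 0.18. Over all series and arms, that further probe changed by −0.40 at 24 h and −0.42 at 48 h against 0 h. Doc2a was 0.58 to 1.57 early and 2.07 to 2.42 late in B, with differences of 0.39, 0.96, 0.33 and 0.30 (adjusted p = 0.0573), and did not pass. Vamp2 was 8.70 to 9.40 early and 9.58 to 10.42 late in B, with differences of −0.49, 0.73, −0.060 and −0.13 (adjusted p = 0.00909). Syn1, Rab3a and Stx1a had the same pattern of signs as Vamp2, higher late in B and lower in A, C and D, with overlap in B. Their differences were −0.70, 1.12, −0.36 and −0.51 for Syn1 (adjusted p = 0.00123), −0.92, 0.78, −0.28 and −0.57 for Rab3a (adjusted p = 0.00182) and −0.47, 0.61, −0.15 and −0.39 for Stx1a (adjusted p = 0.00382). These genes encode a synapsin, a vesicle GTPase and a SNARE protein.

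**Figure D3:**
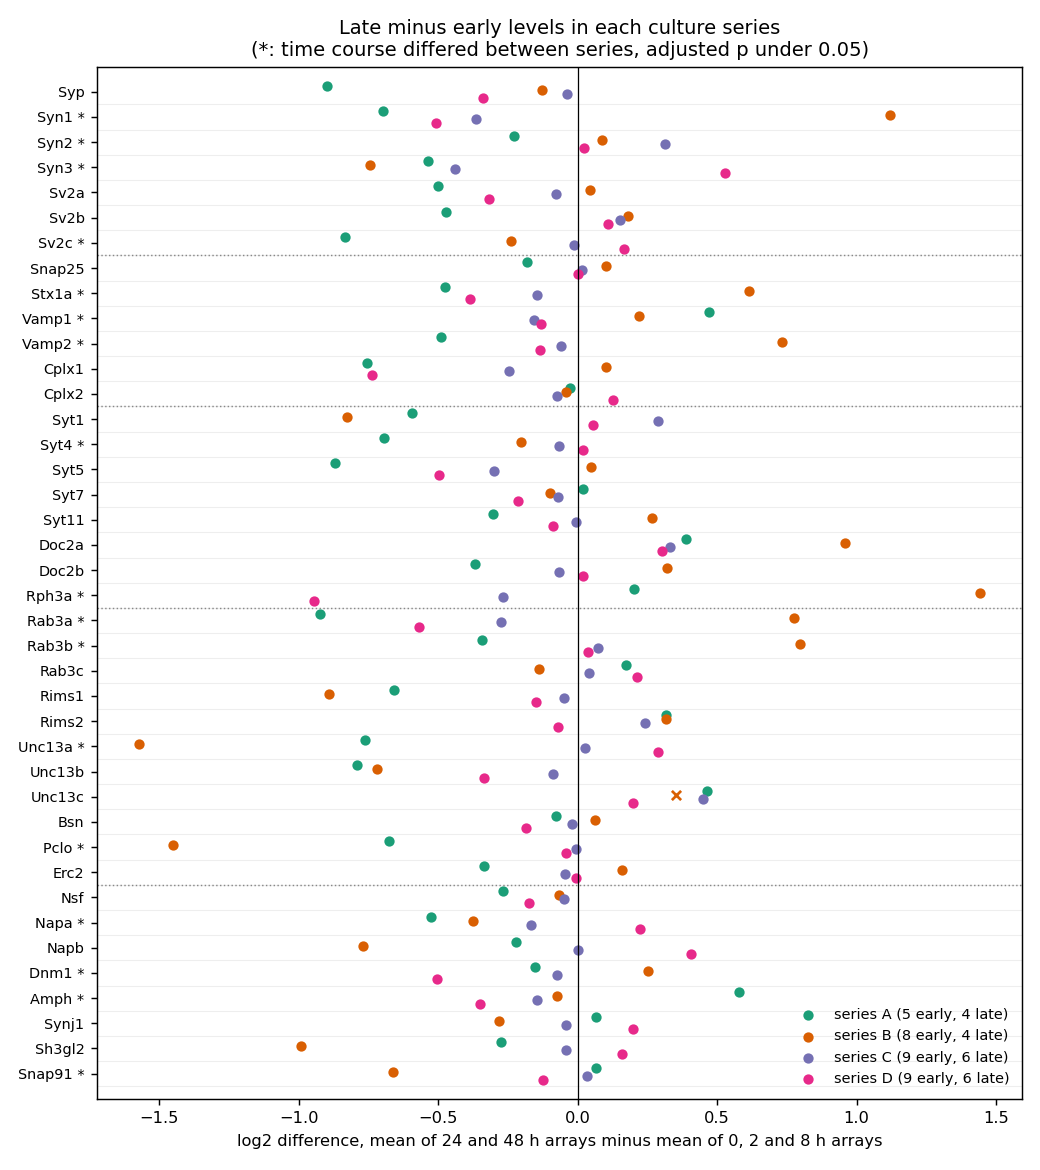
Mean level at 24 and 48 h minus mean level at 0, 2 and 8 h (log2) for each of the 40 genes (rows) in series A, B, C and D (points by series), with an asterisk at genes whose course differed between series (adjusted p under 0.05, limma). A cross marks Unc13c in series B, where all its arrays lay at background. In series B, Unc13a lies at −1.57 and Rph3a at 1.44, while in C and D Unc13a lies at 0.024 and 0.29.

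Slides ran with time within a series, and slide 4 held both early (2 arrays at 8 h) and late arrays (4) of series B. Unc13a, Pclo, Rims1, Rph3a and Doc2a did not overlap over all arrays of series B, so they could not overlap on that slide, and their values are a description. On it Unc13a was 2.16 to 2.44 at 8 h and 0.65 to 1.10 late, Pclo was 3.81 to 3.97 at 8 h and 2.38 to 2.82 late and Rims1 was 1.04 to 1.23 at 8 h and −0.21 to 0.55 late. Rph3a was 2.50 to 2.77 at 8 h and 3.09 to 4.12 late and Doc2a 1.54 to 1.57 at 8 h and 2.07 to 2.42 late. In all 15 of 40 genes did not overlap on this slide, 10 lower and 5 higher late, where 45.5% of all probes did not overlap. The neuron markers of series B had list means of 6.07 to 6.45 early and 6.15 to 6.61 late, and the astrocyte markers 6.92 to 7.32 and 7.28 to 8.40. The oligodendrocyte lineage had list means of 5.68 to 6.14 early and 6.26 to 6.79 late, and the part of these shifts was not tested.

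In series A, Rab3a (5.14 to 6.26 early and 4.13 to 5.01 late), Syt4 (8.07 to 8.55 early and 7.15 to 7.81 late), Pclo (4.10 to 4.41 early and 2.76 to 4.001 late), Unc13b and Napa did not overlap and were lower late, with 5 early and 4 late arrays. In series D, Cplx1 was 3.80 to 4.25 early and 2.92 to 3.47 late, a difference of −0.74. In series C the genes were Rab3a, which was 4.62 to 4.97 early and 4.35 to 4.61 late, and Vamp1, which was 4.36 to 4.48 early and 4.19 to 4.33 late. The medians over the 40 genes were −0.34 in A, 0.046 in B, −0.047 in C and −0.056 in D. Amph, Dnm1 and Rab3b passed with all series but not without series A. For Amph and Dnm1 the 1 array of series A at 8 h, after 1 Hz, had levels of 0.89 and −1.41, the lowest of that series. The remaining genes that passed with all series were Napa, Snap91, Sv2c, Syn2, Syn3, Syt4 and Vamp1.

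**Figure D4:**
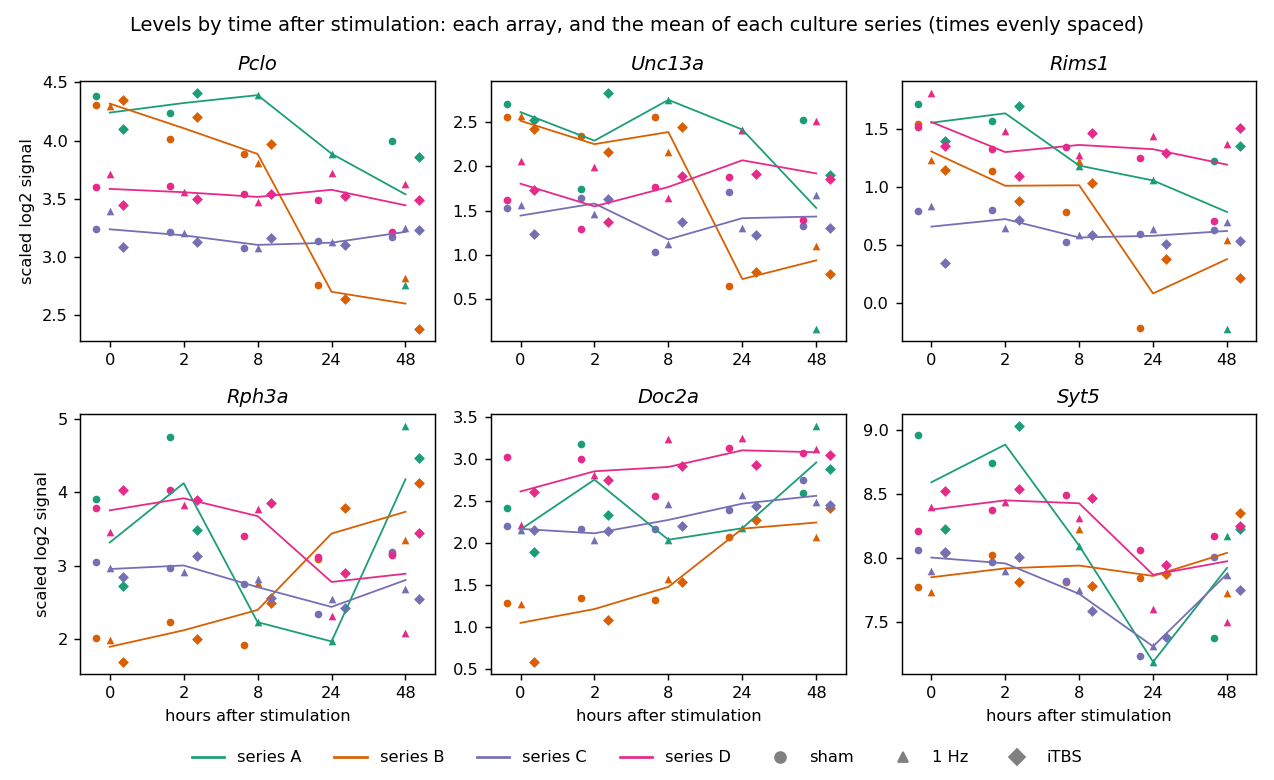
Level (log2, scaled within the array) of 6 vesicle release genes against hours after stimulation, with 1 point per array and 1 line per series through the means; the genes were chosen after their values had been seen. Pclo and Unc13a lie lower at 24 h than at 8 h in series B, where the 8 h arrays ran over 3.81 to 3.97 and 2.16 to 2.44 on the slide that holds both times, while the late minus early differences of Pclo were −0.0068 in C and −0.042 in D.

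Stimulation was the comparison the study was built for, and no vesicle release gene passed in it. In each of the 10 comparisons of a stimulated group with sham at the same time, 0 of 40 genes reached an adjusted p under 0.05, where between 0% and 0.0056% of all probes did. The same held for iTBS against 1 Hz at each time (0% to 0.0056%), for the untreated control against sham at 0 h (0.0028%) and for each protocol averaged over times (0%). Tests of any stimulated group against its sham, of the protocols at any time (0.0028% of all probes each) and of a change from sham that differed between times (0%) passed for none either, and the smallest unadjusted p in them was that of Rab3c, Rab3c, Rab3a (1 Hz) and Rab3c (iTBS), at 0.273, 0.0941, 0.385 and 0.349 by limma. Of the 400 tests of a gene against sham without a block, the smallest unadjusted p by limma was 0.0600 and the smallest adjusted p 1.00. Without Unc13c the changes ran from −0.79 to 0.68. The median half-width of the 95% interval was 0.69 to 0.85 on the log2 scale by comparison, and that of single genes ran from 0.33 to 1.59. With the series at each time as a block the standard errors were smaller (for iTBS at 0 h the smallest over the genes was 0.16 without and 0.092 with the block), and again no gene passed. At an unadjusted p under 0.05 by limma, that block gave 2, 0, 5, 1 and 5 of 40 genes after 1 Hz from 0 h to 48 h. The shares of all probes were 3.25%, 1.74%, 4.59%, 3.24% and 14.4%. After iTBS it gave 7, 3, 1, 0 and 3 (all probes 16.2%, 11.4%, 3.21%, 1.7% and 8.56%). Between the protocols it gave 1, 0, 1, 1 and 13 (all probes 7.99%, 1.54%, 3.34%, 1.91% and 16.5%). Averaged over times and without a block, the median half-width was 0.35 for 1 Hz and 0.34 for iTBS, and no interval of the 40 genes reached 1 in either direction.

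**Figure D5:**
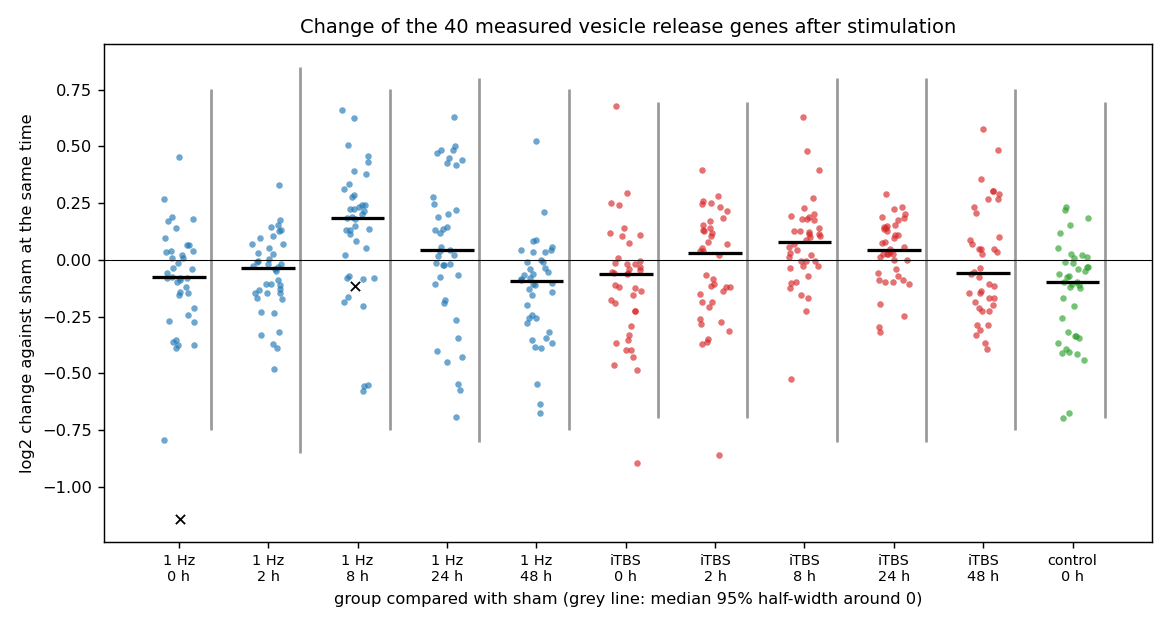
Log2 change of each of the 40 vesicle release genes (points) against sham at the same time, for 1 Hz and iTBS at the 5 times, and for the untreated control, with a black bar at the median of the genes and a grey line for the median half-width of the 95% interval. Crosses mark Unc13c where all arrays after 1 Hz lay at background and the value is no measured size. Of the other genes the points of the 10 stimulated groups lie between −0.79 and 0.68, and none passed an adjusted p under 0.05.

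After 1 Hz stimulation, the gene with the smallest p in the fit without a block was a different one at each time. At 0 h it was Unc13c, well above background on none of the 3 stimulated arrays and on 2 of 4 sham arrays (levels of −3.53, −3.09, −2.34 and −2.11). Both groups thus held arrays at background, so no size is given, and the gene did not pass (limma, unadjusted p = 0.108, adjusted p = 1.00). At 2 h it was Sv2a, a vesicle transporter-like protein, with 5.48 and 5.77 after stimulation and 5.79, 5.31, 6.72 and 6.15 in sham (−0.37 ± 0.28, unadjusted p = 0.187, adjusted p = 1.00, limma). At 8 h it was Rab3a, with 5.43, 5.01, 4.62 and 5.92 after stimulation and 4.07, 4.63 and 5.15 in sham (0.62 ± 0.40, unadjusted p = 0.130, adjusted p = 1.00, limma). The groups overlapped for both genes. At 24 h it was Vamp2, with 8.88, 9.22 and 9.29 after stimulation and 9.64, 9.38 and 10.002 in sham (−0.55 ± 0.31, unadjusted p = 0.0833, adjusted p = 1.00, limma). Vamp2 and Stx1a did not overlap in that comparison, where 6.7% of all probes did not, and the differences of Vamp2 within series C and D were −0.16 and −0.71. At 48 h it was Cplx1, with 2.26, 2.85, 2.54 and 2.92 after stimulation and 3.71, 2.80 and 3.44 in sham (−0.67 ± 0.39, unadjusted p = 0.0923, adjusted p = 1.00, limma), and it was lower in each of the 3 series that held both groups (−1.45, −0.26 and −0.52 in A, C and D). With the series at each time as a block the change was −0.77 (unadjusted p = 0.000446, adjusted p = 0.146).

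After iTBS, the gene with the smallest p at 0 h was Syt1, the calcium sensor of fast release, with 4.59, 3.94, 4.45 and 4.29 after stimulation and 4.65, 4.30, 1.41 and 4.21 in sham (0.68 ± 0.41, unadjusted p = 0.105, adjusted p = 1.00, limma). A single sham array, replicate 3, was low, and without it the change was −0.068. At 2 h it was Erc2, with 3.14, 3.15, 3.22 and 2.48 after stimulation and 2.95, 2.08, 2.73 and 2.64 in sham (0.40 ± 0.28, unadjusted p = 0.165, adjusted p = 1.00, limma), and at 24 h Erc2 again, with 2.97, 2.20 and 2.31 after stimulation and 3.32, 2.50 and 2.55 in sham (−0.30 ± 0.32, unadjusted p = 0.363, adjusted p = 1.00, limma). Its change was above 0 at the earlier time and below 0 at the later. At 8 h it was Syn3, with −1.98, −1.08 and −0.72 after stimulation and −2.16, −2.03 and −1.47 in sham (0.63 ± 0.51, unadjusted p = 0.224, adjusted p = 1.00, limma). At 48 h it was Rab3c, a vesicle GTPase, with 1.31, 1.09, 1.32 and 1.16 after stimulation and 1.93, 1.40 and 1.42 in sham (−0.36 ± 0.19, unadjusted p = 0.0600, adjusted p = 1.00, limma). The iTBS arrays of Rab3c lay wholly below sham, where 1.44% of all probes did not overlap, and the differences within series A, C and D were −0.62, −0.08 and −0.26.

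Between the protocols, Rab3c also gave the smallest p at 48 h, with 1.31, 1.09, 1.32 and 1.16 after iTBS and 2.16, 1.52, 1.41 and 1.59 after 1 Hz (−0.45 ± 0.17, unadjusted p = 0.0136, adjusted p = 1.00, limma). These groups did not overlap (0.911% of all probes), and iTBS was lower in each of the 4 series, with differences of −0.85, −0.43, −0.09 and −0.43 in A to D. Both comparisons of Rab3c share the iTBS arrays. At 0 h the smallest p was that of Rab3c too (−0.25 ± 0.19, unadjusted p = 0.186, adjusted p = 1.00), at 2 h that of Erc2 (0.44 ± 0.34, unadjusted p = 0.204, adjusted p = 1.00) and at 8 h that of Sh3gl2 (−0.81 ± 0.44, unadjusted p = 0.0702, adjusted p = 1.00), all by limma. At 24 h it was Syn1, with 6.47, 5.13 and 5.87 after iTBS and 4.77, 4.9997 and 5.15 after 1 Hz (0.85 ± 0.46, unadjusted p = 0.0708, adjusted p = 1.00, limma). The arrays after iTBS and in sham at 24 h were of series B, C and D and those after 1 Hz of A, C and D, and with the series at each time as a block the change of Syn1 was 0.51 (unadjusted p = 0.0997, limma). Sv2a at 0 h (1.94% of all probes) and Stx1a, Sv2b and Vamp2 at 24 h (5.26%) did not overlap between the protocols, and with that block the changes of Stx1a, Sv2b and Vamp2 were 0.28, 0.26 and 0.34, in place of 0.38, 0.40 and 0.46. Vamp2 was 9.58, 9.43 and 9.76 after iTBS and 8.88, 9.22 and 9.29 after 1 Hz at that time, and Stx1a was 8.39, 8.11 and 8.33 after iTBS and 7.79, 7.91 and 8.002 after 1 Hz.

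Between untreated control and sham at 0 h, Rims1, the main Rim scaffold, had the smallest p, with 0.65, 0.97, 0.59 and 0.59 in control and 1.55, 1.71, 0.80 and 1.52 in sham (−0.70 ± 0.33, unadjusted p = 0.0410, adjusted p = 1.00, limma). The differences within series A and C were −0.91 and −0.21. Syn3 was the gene whose groups did not overlap (2.01% of all probes). Averaged over times, the smallest p belonged to Rab3c for 1 Hz (0.14 ± 0.088, unadjusted p = 0.109, adjusted p = 1.00) and to Sh3gl2 for iTBS (−0.26 ± 0.19, unadjusted p = 0.190, adjusted p = 1.00), both by limma.

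The 6 textbook markers are given as means ± SD over the arrays of each group given above. A group held arrays of differing series, so its SD includes the difference between series. Some groups also differed in the series they held, so these values do not measure how close the arms lay. Syp was 2.72 ± 0.61, 2.58 ± 0.65, 2.50 ± 0.83, 2.39 ± 0.56 and 2.50 ± 0.55 in sham from 0 h to 48 h. After 1 Hz Syp was 2.45 ± 0.76, 2.65 ± 0.95, 2.83 ± 0.61, 2.38 ± 0.35 and 1.87 ± 0.52 over the same times, after iTBS 2.53 ± 0.50, 2.72 ± 0.77, 2.46 ± 0.66, 2.30 ± 0.74 and 2.59 ± 0.61, and 2.46 ± 0.53 in control. Syp passed in no comparison of arms, nor of a later time with 0 h. Syn1 was 5.80 ± 0.70, 6.13 ± 0.96, 5.51 ± 0.48, 5.67 ± 0.59 and 5.63 ± 0.20 in sham from 0 h to 48 h. After 1 Hz Syn1 was 5.68 ± 0.68, 5.91 ± 0.48, 5.79 ± 0.30, 4.97 ± 0.19 and 5.55 ± 0.36 over the same times, after iTBS 5.64 ± 0.64, 5.85 ± 0.63, 5.69 ± 0.48, 5.82 ± 0.67 and 6.20 ± 0.69, and 5.78 ± 0.11 in control. Syn1 likewise passed in none of them. Snap25 was 6.18 ± 0.44, 6.40 ± 0.54, 5.998 ± 0.43, 5.94 ± 0.58 and 6.39 ± 0.18 in sham from 0 h to 48 h. After 1 Hz Snap25 was 6.22 ± 0.47, 6.26 ± 0.70, 6.24 ± 0.49, 6.09 ± 0.64 and 6.26 ± 0.47 over the same times, after iTBS 6.12 ± 0.53, 6.22 ± 0.64, 6.13 ± 0.50, 6.15 ± 0.40 and 6.44 ± 0.55, and 6.23 ± 0.43 in control. Snap25 too passed in none.

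Vamp2 was 9.48 ± 0.58, 9.47 ± 0.25, 9.53 ± 0.37, 9.68 ± 0.31 and 9.69 ± 0.24 in sham from 0 h to 48 h. After 1 Hz Vamp2 was 9.58 ± 0.43, 9.602 ± 0.58, 9.62 ± 0.22, 9.13 ± 0.22 and 9.49 ± 0.22 over the same times, after iTBS 9.601 ± 0.58, 9.73 ± 0.54, 9.41 ± 0.16, 9.59 ± 0.16 and 9.90 ± 0.41, and 9.41 ± 0.20 in control. Vamp2 is the marker with the lowest p after 1 Hz at 24 h, described above, and did not pass. Stx1a was 8.41 ± 0.64, 8.38 ± 0.29, 8.36 ± 0.37, 8.35 ± 0.28 and 8.41 ± 0.027 in sham from 0 h to 48 h. After 1 Hz Stx1a was 8.33 ± 0.47, 8.45 ± 0.41, 8.51 ± 0.18, 7.90 ± 0.11 and 8.30 ± 0.21 over the same times, after iTBS 8.38 ± 0.51, 8.59 ± 0.60, 8.35 ± 0.20, 8.28 ± 0.15 and 8.68 ± 0.38, and 8.44 ± 0.12 in control. Its 24 h arrays after 1 Hz lay below those of sham without overlap. Syt1 was 3.64 ± 1.502, 4.01 ± 0.11, 3.90 ± 0.27, 3.62 ± 0.35 and 4.03 ± 0.42 in sham from 0 h to 48 h. After 1 Hz Syt1 was 4.10 ± 0.48, 4.003 ± 0.16, 4.01 ± 0.59, 4.07 ± 0.33 and 3.69 ± 0.49 over the same times, after iTBS 4.32 ± 0.28, 4.17 ± 0.74, 3.89 ± 0.48, 3.75 ± 0.33 and 3.81 ± 0.39, and 3.86 ± 0.40 in control. Sham at 0 h held the single low array at 1.41.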

How the data were processed

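Expression was measured in 56 one-colour Agilent rat arrays, 1 sample per array. The authors had extracted the deposited processed signals, intensities corrected for background on a linear scale, with Feature Extraction 12.0.3.1 (build rn4 in the headers), and these were not yet normalized. Per spot, the authors also deposited a z-score computed within each array, and recomputed scores lay within 0.005 of it. Groups and replicate numbers came from sample titles and series from the numbering of the descriptions.

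The log2 processed signals of non-outlier spots were averaged per probe, turned into z-scores within the array and put back on a log2 scale with 4.06, the median SD. Of the probes, 420 without a value were dropped, and 35694 were tested, each of them well above background at least on 3 arrays. Gene symbols came from a RefSeq table (GRCr8) through accessions without version, for 21109 of 45598 probes. Group means were fitted with limma 3.58.1 in R 4.3.3 on 55 arrays, with 39 residual degrees of freedom, and p-values were Benjamini-Hochberg adjusted over all tested probes at 0.05. Series were compared with series, time and arm in the model. The test of series by time and the split into early and late arrays were added after the data were seen. The fit was tested on simulated data.

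Named genes were those that passed in a comparison other than of series, else the gene with the smallest unadjusted p in each contrast, up to 3 highest and 3 lowest genes in each series contrast, and the 6 textbook markers. The genes and lists were chosen with earlier results of these data known. The alternatives were 75th percentile scaling, quantile normalization, normexp correction with an offset of 50 (on median signals, since mean signals were not in the files), the deposited z-scores, other filters on dim probes, blocks, the mean over probes, all 56 arrays and leaving out each array. Where a whole group lay at background for a gene, only a bound or no size is given. A bound was taken from the lowest signal of each array that the software called well above background.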

Additional observations from a re-analysis of the deposited data

Results flagged for a closer look

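Within groups of 4 arrays, 12 of 216 sets (27 genes in 8 groups) held 1 array far from the others by Dixon's ratio, and chance gives about 1 in 20 (0.05). In scaffolds of the active zone, Erc2 was at 1.88 against 2.39 to 2.40 in control replicate 1 and at 2.48 against 3.14 to 3.22 in iTBS replicate 4 at 2 h. Rims1 was at 0.59 against 1.19 to 1.28 in 1 Hz replicate 3 at 8 h and at 0.97 against 0.59 to 0.65 in control replicate 2. Rims2 was at 3.82 against 3.08 to 3.19 in 1 Hz replicate 3 at 48 h. Of the priming factors and Rab3 genes, Unc13c was at −3.59 against −1.66 to −1.32 in 1 Hz replicate 2 at 48 h and Rab3c at 2.08 against 1.34 to 1.34 in 1 Hz replicate 1 at 8 h.

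Napb was at 1.85 against −0.23 to 0.0086 in 1 Hz replicate 4 at 48 h, an array of series D, and at −0.12 against 1.12 to 1.17 in iTBS replicate 2 at 0 h, an array of series C. Sv2b was at 4.58 against 3.65 to 3.81 in iTBS replicate 4 at 2 h and Syn3 at −0.81 against −1.67 to −1.54 in iTBS replicate 3 at 2 h. The widest gap was that of Syt1, at 1.41 against 4.21 to 4.65 in sham replicate 3 at 0 h.

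The course over time differed between series for 17 genes (limma, test added after the data were seen), close to the 39.4% of all probes, so the count does not set these genes apart. Among active zone and Rab3 genes the adjusted p was 5.85e-05 for Pclo, 0.0122 for Unc13a, 0.00182 for Rab3a and 0.0332 for Rab3b. Among vesicle membrane genes it was 0.00123 for Syn1, 0.0224 for Syn2, 0.0241 for Syn3 and 0.000604 for Sv2c. Among SNARE genes it was 0.00382 for Stx1a, 0.0476 for Vamp1 and 0.00909 for Vamp2, and among C2-domain genes 0.000638 for Rph3a and 0.00155 for Syt4. Among recycling genes it was 1.20e-08 for Amph, 2.64e-06 for Dnm1, 0.00633 for Napa and 0.0227 for Snap91. Without series A, Amph, Dnm1 and Rab3b did not pass.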

How the results depend on the processing

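No vesicle release gene passed between stimulated and sham arrays under any alternative with the 55 arrays. Counts given below without a share of all probes were not set against one, and describe these genes only. With all 56, the misplaced array gave 29 genes for 1 Hz against sham at 2 h and 27 for iTBS against 1 Hz at 2 h, and the counts fell to 0 at 48 h against 0 h, 13 for series D, 6 for C, 4 for A over B and 15 for any series. That setting also turned the sign of Rab3c for 1 Hz averaged over times (−0.11), Sv2b at 2 h (−0.47), Syt11 (0.0016) and Synj1 (0.0080) in series D and Rims2 in series C (−0.0051).

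Against 0 h, the count at 48 h was 2 with quantile normalization and 0 with normexp correction, the deposited z-scores or no filter on dim probes. It was also 0 with the slide as a block (all probes 3.5%). With the series as a block the counts were 5 at 24 h (all probes 14%), 7 at 48 h (27%) and 8 at any time (27%). A filter at a share of 0.5 of the arrays gave 1 at 24 h and 1 at any time, and the mean over probes gave 1 at 24 h. The slide block left 13 genes for series C (all probes 29.1%) and 1 for A over B (0.44%).

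Replicate numbers were not taken as pairs of samples in the main fit. Correlations between arrays of different groups were taken after the group means had been subtracted. Arrays of the same number then correlated at a mean of 0.16 (lowest −0.46) over 373 pairs, and those of different numbers at −0.056. Of 55 arrays, 35 lay closest to an array of their own number. Arrays of the same series correlated at 0.40 on these values and those of different series at −0.13. Every array of series D carried the highest replicate number of its group, so the number and series D were partly bound together. Shares of all probes are not given for the replicate number as a block. With it, 2 genes passed at 24 h, 3 at 48 h, 2 at any time and 11 for series D. In D the changes of Syn1, Rab3a and Vamp2 then turned to −0.12, −0.20 and −0.048, those of Syp and Cplx1 were 0.16 and 0.017, and none of these passed. Nor did Syn3 in D (0.69, adjusted p = 0.0572), Vamp1 in D (−0.28, adjusted p = 0.159) or Doc2a in C (0.13, adjusted p = 0.508).

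Leaving out each array in turn gave 0 to 1 genes at 24 h, 0 to 3 at 48 h, 0 to 2 at any time, 25 to 29 for series D, 21 to 24 for C, 12 to 19 for A over B, 36 to 38 for any series and 14 to 22 for series by time, and 0 for all comparisons of arms. The change of Syt1 after iTBS at 0 h ran from −0.068, without sham replicate 3, to 1.01. The cause of these shifts was not tested.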
